A study of Rattus norvegicus with 24 samples.

Results

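The genes of oxidative phosphorylation, the pathway by which mitochondria make most of the cell's ATP, were followed in the peripheral blood of rats on 24 two-colour microarrays. The genes were chosen by name alone: every probe that was not a control and whose gene name began with Nduf, Sdha to Sdhd, Uqcr, Cox4 to Cox8 or Atp5. This gave 94 genes among the 25885 gene names on the array, which carried 30367 probes in all. Complex I had 47 of them, complex II 5, complex III 8, complex IV 16 and complex V 18. These counts follow the prefix of the array's gene name and not a protein's known position. Ndufa4 is thus counted in complex I, and Atp5sl (current symbol Dmac2) in complex V. The name rule also took in assembly factors such as the Ndufaf genes and near-copies such as Cox6c-ps1, and counts over the members or over a complex include them. A list of 19 core subunits, counted separately, holds the main catalytic subunits of the complexes together with partners such as the membrane anchors Sdhc and Sdhd and the complex IV subunits Cox4i1, Cox5a and Cox5b. Ndufv2, also a conserved core subunit of complex I, is not on this list and is counted among the other subunits. Where a gene had several probes, the one with the brightest Cy3 signal was used.

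The animals were male Sprague Dawley rats, 8 weeks old at the start and fed for 6 weeks. G0 was the semi-synthetic control diet, G1 that diet plus oat beta-glucan of high molecular weight, and G2 plus the low-molecular-weight form. Rats of the 3 control groups (C-G0, C-G1 and C-G2) received saline through the tail vein, and rats of the 3 LPS groups (LPS-G0, LPS-G1 and LPS-G2) received E. coli lipopolysaccharide (LPS, a bacterial cell wall component that provokes inflammation) at 10 mg per kg of body weight by the same route, in repeated injections early in the experiment. Each group had 4 arrays, 1 rat to an array, and every array carried a common RNA pool in its other channel.

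Electrons from NADH enter the respiratory chain at complex I and those from succinate at complex II. They pass through complex III to complex IV, which hands them to oxygen, and the proton gradient built on the way drives the ATP synthase, complex V. In blood, lymphocytes and other nucleated cells hold mitochondria, whereas maturing red cells lose theirs along with their RNA. Whole blood therefore mixes cells of very different respiratory gene content, and in such bulk RNA fewer cells of a type and less RNA per cell cannot be told apart.

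Every value below is the log2 ratio of Cy3 to Cy5, and a difference is that of 2 group means on this scale. The labels place the rat in Cy3 and the pool in Cy5, while the methods of the study state the reverse, in which case every sign below would turn. The labels were followed. Across replicates of a group the Cy3 signal varied more than the Cy5 signal for 65 of the 75 genes with a signal clear of background throughout (86.7%), with a median SD of 0.292 against 0.224 on the log2 scale. Over all 7074 such probes this held for 95.3%. The channel of a common pool carries the same RNA on every array. However, these signals were not scaled between arrays, and fewer probes were above background in Cy3 (7786 to 15385 an array) than in Cy5 (14400 to 22449). Brightness and noise of the dyes can differ for such reasons, so the spread does not settle which channel held the rat. The study also reports the red cell gene Dmtn lower in LPS-G1 than in LPS-G0, and granzymes higher in LPS-G0 than in C-G0. Dmtn and the cytotoxic markers took those directions here. Those microarray results came from the same arrays, so the match shows the orientation the study used. It does not by itself place the rat in Cy3. A further conflict touches LPS-G0 replicates 3 and 4, titled as LPS rats but marked as controls in another label field. They were used as titled.

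Of the 94 genes, 75 gave a Cy3 signal clear of background on the full 24 arrays, 14 on some of them, and 5 on none. No member was saturated. Tests ran on probes above background on all 4 arrays of at least 1 group. Of the members, 83 passed where the 16 arrays of the main comparisons were fitted and 84 where all 24 were fitted. Ndufs8 (a core iron-sulphur subunit of complex I), Ndufa7, Ndufaf1, Ndufaf2, Ndufaf7, Cox6a2, Cox8b, Cox8c, Atp5s and Atp5sl passed in neither fit. In Cy5, the channel of the rat if the methods' account of the dyes holds, Ndufs8, Ndufaf7 and Atp5sl were above background on 24 of 24 arrays and Atp5s on 22. Ndufaf4 passed with 24 arrays only, through C-G1 alone. With 16 arrays Ndufaf6 passed through LPS-G0 alone and Cox7c through LPS-G1 alone.

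A few probe sequences are shown because results below turn on them. Positions are on rn4 as the arrays' files give them. The Ndufa11 and Ndufa12 probes report a pair of complex I accessory subunits that stood highest in LPS-G0. The Ndufa11 match lies on unplaced sequence, chrUn:25058436-25061306 on the minus strand, wider than the probe, and that of Ndufa12 is at chr7:31375950-31376009 on the plus strand.
Ndufa11: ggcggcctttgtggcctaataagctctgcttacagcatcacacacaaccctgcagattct
Ndufa12: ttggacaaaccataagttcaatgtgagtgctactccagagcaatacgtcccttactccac

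Uqcr11, a small subunit of complex III, had 3 probes. A pair of them overlaps by 30 bases, shown in capitals, and they are printed because they gave different results. The upper sequence is that of the overlapping probe (chr7:10819576-10819635) and the lower that of the probe used (chr7:10819606-10819665), both on the plus strand.
Uqcr11, overlapping probe: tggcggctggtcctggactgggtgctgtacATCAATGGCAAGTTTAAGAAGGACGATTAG
Uqcr11, probe used: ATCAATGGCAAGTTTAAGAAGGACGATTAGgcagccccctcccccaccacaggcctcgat

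Cox6c, a subunit of complex IV, and Cox6c-ps1, named as its pseudogene, have probes that match at 40 of 46 overlapping bases (87.0%). Mismatches are in capitals. Signal cannot be assigned with certainty between copies this alike, so the Cox6c-ps1 values below are uncertain as to their source. The Cox6c probe lies at chr7:71474381-71474440 and that of Cox6c-ps1 at chr19:54398139-54398198, both on the minus strand.
Cox6c: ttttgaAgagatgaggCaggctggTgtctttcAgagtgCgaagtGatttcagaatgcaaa
Cox6c-ps1: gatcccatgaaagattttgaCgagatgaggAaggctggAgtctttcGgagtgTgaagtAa

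The members as a whole sat close to the reference pool on most arrays. The median over the 84 genes lay between -0.16 and 0.12 on 23 arrays and was -0.31 on C-G0 replicate 1. Within every group the typical member varied less between rats than the typical probe. The median SD of members was 0.259 against 0.377 for all probes in C-G0, and 0.171 against 0.230 in LPS-G1. Over all 24 arrays the steadiest members were Atp5d (SD 0.122), Atp5j (SD 0.133), both ATP synthase subunits, and Cox4i1 (SD 0.138), the widely expressed subunit 4 of complex IV. Among the 84 tested members, Ndufaf4, a complex I assembly factor above background on 13 of the arrays (SD 0.580), and Ndufs1, the largest core subunit of complex I (SD 0.556), varied most.

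A pair of arrays stood apart. On C-G0 replicate 1, 29 of the 84 members lay more than 0.5 below the gene's median over the 24 arrays and 6 as far above it (41.7%, against 48.2% of all probes). Of the low members 12 were among the 18 tested core subunits and 17 were not. The core ones included Atp5a1 (current symbol Atp5f1a, the ATP synthase alpha subunit) at a log2 ratio of -1.21, Ndufs1 at -1.30 and Atp5c1 (Atp5f1c, the gamma subunit) at -1.22. Uqcr11 stood at 0.82 on the same array. On C-G1 replicate 2, 19 members lay below and 8 above (32.1%, against 49.5% of all probes), with Ndufa12 at -1.49, Cox7b at -1.26, Ndufa11 at -1.21 and Atp5a1 at 0.72. Of those 19 low members 2 were core subunits. On the other 22 arrays between 0 and 16.7% of members were as distant.

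Some lists of blood cell markers were also low on these arrays, and others were high. The mean log2 ratio of the 7 erythroid markers tested was -1.70 on C-G1 replicate 2 and between -0.91 and 0.28 on the other 23. On C-G0 replicate 1 the B cell mean was -0.82, against -0.59 to 0.56 on the others, and the natural killer mean -1.79, against -0.81 to 0.67. The T cell mean was -0.59 there, within the range of -0.91 to 0.48 on the others. The erythroid mean (0.28) and the cell division mean (0.87) were at their highest on C-G0 replicate 1. On C-G1 replicate 2 the T cell mean (0.48) was at its highest, and the cell division (-1.19) and platelet (-0.80) means at their lowest. The part of these cells in the members' values was not tested.

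**Figure D1:**
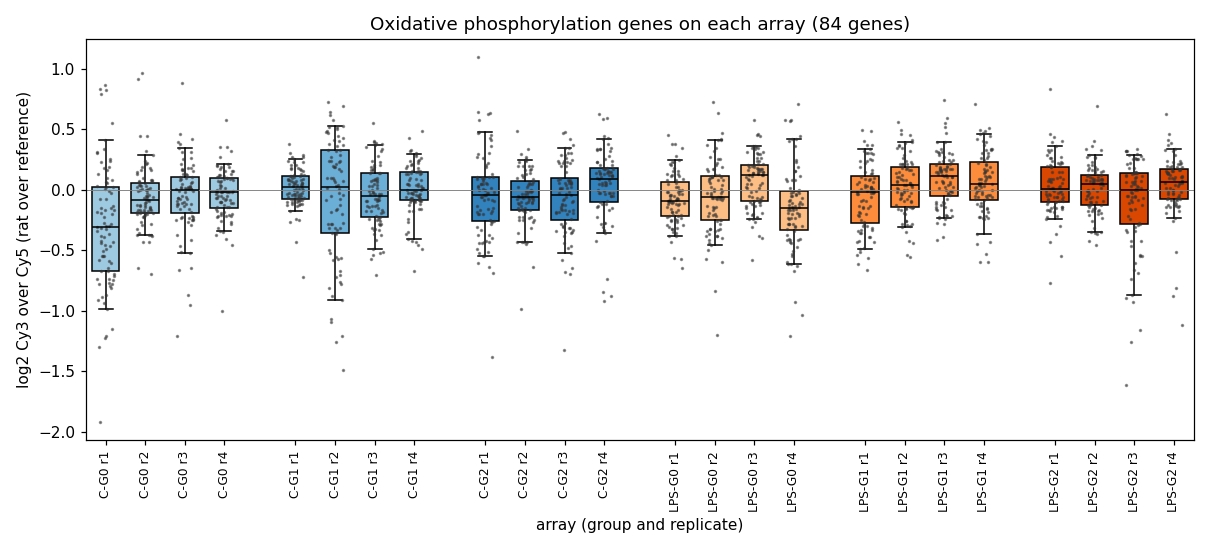
Log2 Cy3 over Cy5 (vertical axis) of the 84 tested oxidative phosphorylation genes on each of the 24 arrays, grouped by condition; each point is a gene, the box spans the interquartile range with the median as a line, and whiskers reach the 5th and 95th percentiles. The box of C-G0 replicate 1 sits lowest, with a median of -0.31, and that of C-G1 replicate 2 is wide around a median near 0.

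LPS on the control diet (LPS-G0 vs. C-G0) left no member past the threshold of an adjusted p under 0.05. Among all 10313 probes tested in this comparison 0.0097% were called, so that a count of 0 among the 83 members is near the background. At an unadjusted p under 0.05, 6 members were higher in LPS-G0 (7.23%) and none lower, against 10.7% of all probes higher and 4.44% lower. The median difference over the members was 0.05, and over all probes 0.03. The 4 smallest p-values all belonged to accessory subunits or near-copies of complex I: Ndufa12, Ndufa7l, Ndufa11 and Ndufa13.

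Ndufa12 is an accessory subunit of the matrix arm of complex I. Its log2 ratios were 0.23, 0.12, 0.46 and 0.58 in LPS-G0 and 0.03, -0.15, 0.03 and -1.0 in C-G0. The LPS-G0 arrays all lay above the C-G0 arrays. The difference was 0.62 (SE 0.212, limma adjusted p = 0.224). The exact two-sided permutation test gave p = 0.0286, the smallest that 4 arrays against 4 allow and the one that any groups without overlap give. Without C-G0 replicate 4, which held the lowest value, the difference was 0.38.

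Ndufa11 is an accessory subunit in the membrane arm. It gave 0.34, 0.41, 0.34 and 0.71 in LPS-G0 and 0.31, -0.13, 0.15 and -0.29 in C-G0. These groups did not overlap either, and the difference was 0.44 (SE 0.169, adjusted p = 0.255). Ndufa13, also known as the cell death regulator GRIM-19, read 0.38, 0.64, 0.31 and 0.36 in LPS-G0 and 0.02, 0.06, 0.01 and 0.16 in C-G0. Its difference was 0.36 (SE 0.141, adjusted p = 0.258). In all 3 genes the groups did not overlap, which fixes the same direction within each of the 3 slides. Cox5a, a subunit of complex IV, was the only member whose LPS-G0 arrays all lay below the C-G0 arrays, at -0.35. In all, 4 of 83 members did not overlap between the groups (4.82%), against 5.03% of all probes.

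By complex, the median difference was 0.08 for complex I, -0.13 for complex II, 0.07 for complex III, -0.02 for complex IV and 0.06 for complex V. Of the 41 complex I genes tested 29 lay above 0 (70.7%), against 53.5% of all probes. C-G0 replicate 1 decided the median of all members, which was -0.03 without it, and the direction of the counts: without it 9 members were higher and 8 lower at an unadjusted p under 0.05. Without that array 4 members were called, where 11% of all probes were: Ndufa12 (0.72), Ndufa7l (0.60) and Ndufa11 (0.54) higher in LPS-G0, and Sdhd (-0.46) lower. With array weights 1 was called, Ndufa7l (11.1% of all probes). All 5 natural killer and cytotoxic markers tested had an unadjusted p under 0.05 in this comparison, higher in LPS-G0, with a median of 0.94 and none called.

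The confidence intervals bound what could have been missed. For 80 of the 83 members the 95% interval of the difference lay within 2-fold either way, and for 51 within 1.5-fold.

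**Figure D2:**
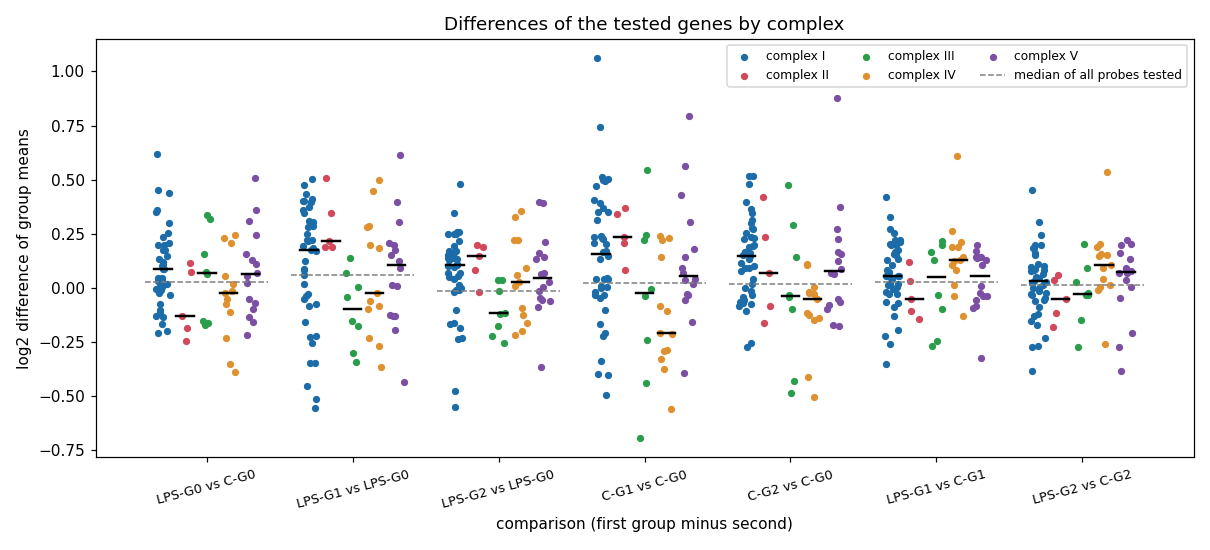
Log2 difference of group means (vertical axis, first group minus second) for each tested gene in 7 comparisons of groups; each point is a gene coloured by complex, black bars are medians of a complex and dashed lines are medians of all probes tested. Most genes lie within 0.5 of 0, and the complex IV median of C-G1 vs. C-G0 is the lowest, at -0.21.

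High-molecular-weight beta-glucan under LPS (LPS-G1 vs. LPS-G0) called more probes than any of the other 8 comparisons. Of the 10313 probes 8.93% were called, 56 higher and 865 lower, and 0 of 83 members were among them. At an unadjusted p under 0.05 there were 9 members higher in LPS-G1 (10.8% of those tested, by 7.59% of all probes) and 4 lower (4.82%, by 19.3%). The smallest adjusted p of a member was 0.0655. The methods' test, Tukey's comparison after an analysis of variance on the same values, gave 1 member higher and 3 lower at an unadjusted p under 0.05, by 12.9% of 10293 probes in either direction. After Benjamini-Hochberg adjustment it called 0 members and 1 probe of them all.

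Ndufa11 had that smallest p. It read -0.00, -0.44, 0.11 and 0.08 in LPS-G1, all under the lowest LPS-G0 value of 0.34. The difference was -0.52 (SE 0.169, adjusted p = 0.0655). Ndufa12 likewise read -0.30, -0.14, -0.03 and -0.37 in LPS-G1, under all LPS-G0 arrays, with a difference of -0.56 (adjusted p = 0.108). This comparison and that of LPS-G0 with C-G0 share the LPS-G0 arrays, on which both genes were high. The values of Ndufa11 averaged 0.01 in C-G0, 0.45 in LPS-G0 and -0.06 in LPS-G1.

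Ndufa2, a small accessory subunit of complex I, went the other way. It gave -0.03, 0.15, 0.31 and 0.27 in LPS-G1 and -0.64, -0.34, -0.23 and -0.10 in LPS-G0, without overlap, a difference of 0.50 (SE 0.182, adjusted p = 0.0915). Sdhd, a membrane anchor of succinate dehydrogenase, gave 0.30, 0.38, 0.24 and 0.40 in LPS-G1 and -0.31, 0.08, -0.06 and -0.42 in LPS-G0. The LPS-G1 arrays were tightly grouped (0.33 ± 0.07, SD, n = 4) and all lay above LPS-G0, with a difference of 0.51 (SE 0.189, adjusted p = 0.0989). Atp5a1 had a difference of 0.61 (SE 0.249, adjusted p = 0.129), with all LPS-G1 arrays above all LPS-G0 arrays. Each of these 3 exact permutation tests gave p = 0.0286, which any 4 arrays without overlap with 4 others must give. It therefore adds nothing to the absence of overlap.

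The groups did not overlap for 11 of 83 members (13.3%), against 21.9% of all probes. Of these 7 were higher in LPS-G1 and 4 lower, by 7.3% and 14.6% of all probes. The 4 lower were Ndufa11, Ndufa12, Ndufb11 and Cox4i2. All 5 complex II genes had differences above 0, between 0.19 and 0.51 with a median of 0.21, and 14 of 18 core subunits did (77.8%), against 55.4% of all probes. The 8 complex III genes had a median of -0.10. The 52 mitochondrial ribosomal protein genes, whose products translate the chain's mitochondrially encoded subunits, had a median of 0.19, and the 98 cytosolic ribosomal protein genes one of 0.22. The median of all members was 0.12 and that of all probes 0.06. Within slides the member median was 0.02 on slide 1, 0.002 on slide 2 and 0.26 on slide 3. With any single array left out the pooled member median lay between 0.09 and 0.16.

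Counts here moved with single arrays. Leaving out LPS-G0 replicate 4 took the members higher at an unadjusted p under 0.05 from 9 to 1. Leaving out C-G0 replicate 1, which enters only through the shared estimate of the spread, called 6 members where 18.7% of all probes were called: Atp5a1, Sdhd and Ndufv1 higher, Ndufa7l, Ndufa11 and Cox4i2 lower. Leaving out C-G0 replicate 4 called Ndufa12 (9.2% of all probes). Quantile normalization between arrays called 1 member, Sdhd (7.75% of all probes), a filter on every array called Ndufa11 (11.4%), and array weights, which give distant arrays less influence, called 13 (27.6%). Of the 7 erythroid markers 5 lay below 0, and 2 had an unadjusted p under 0.05. Both were called lower in LPS-G1: Epb42 (-0.93, adjusted p = 0.0408) and Dmtn (-1.60, adjusted p = 0.0289), of the red cell membrane skeleton. The erythroid mean was 0.18 in LPS-G0, with arrays from 0.16 to 0.20, and -0.32 in LPS-G1, with arrays from -0.91 to -0.01. The 4 cell division markers tested were all lower in LPS-G1, with a median of -0.53 and 2 at an unadjusted p under 0.05. The part of these markers' cells in the members' differences was not tested.

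Low-molecular-weight beta-glucan under LPS (LPS-G2 vs. LPS-G0) gave 0 called members, and 0% of all probes were called. At an unadjusted p under 0.05 there were 1 member higher, Ndufa2 (0.48, SE 0.182, adjusted p = 0.597), and 1 lower, Ndufa12 (-0.55, SE 0.212, adjusted p = 0.597), against 2.62% and 5.61% of all probes. Without C-G0 replicate 1, which enters through the shared spread, 5 members were higher. Ndufa2 read 0.36, -0.32, 0.25 and 0.32 in LPS-G2, so that replicate 2 fell among the LPS-G0 values. Ndufa12 read -0.43, -0.35, -0.22 and 0.17, of which only the last overlapped LPS-G0. Atp5e (Atp5f1e, the ATP synthase epsilon subunit) stood 0.39 above LPS-G0 and Cox5a 0.32 above, neither with a p under 0.05. Of the 83 members 53 lay above 0 (63.9%, by 47.4% of all probes). The groups did not overlap for 2 of them, by 10.5% of all probes. In 81 of 83 members the 95% interval stayed within 2-fold. The 4 neutrophil markers tested were all higher in LPS-G2, with a median of 0.65 and 3 at an unadjusted p under 0.05, and the 5 natural killer markers were all lower, with a median of -0.52 and none at that p. Their part in the members' differences was not tested. LPS-G1 and LPS-G2 were both set against the same LPS-G0 arrays, and for Ndufa11 the differences were -0.52 and -0.24, for Sdhd 0.51 in LPS-G1 with LPS-G2 arrays between -0.10 and 0.13.

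**Figure D3:**
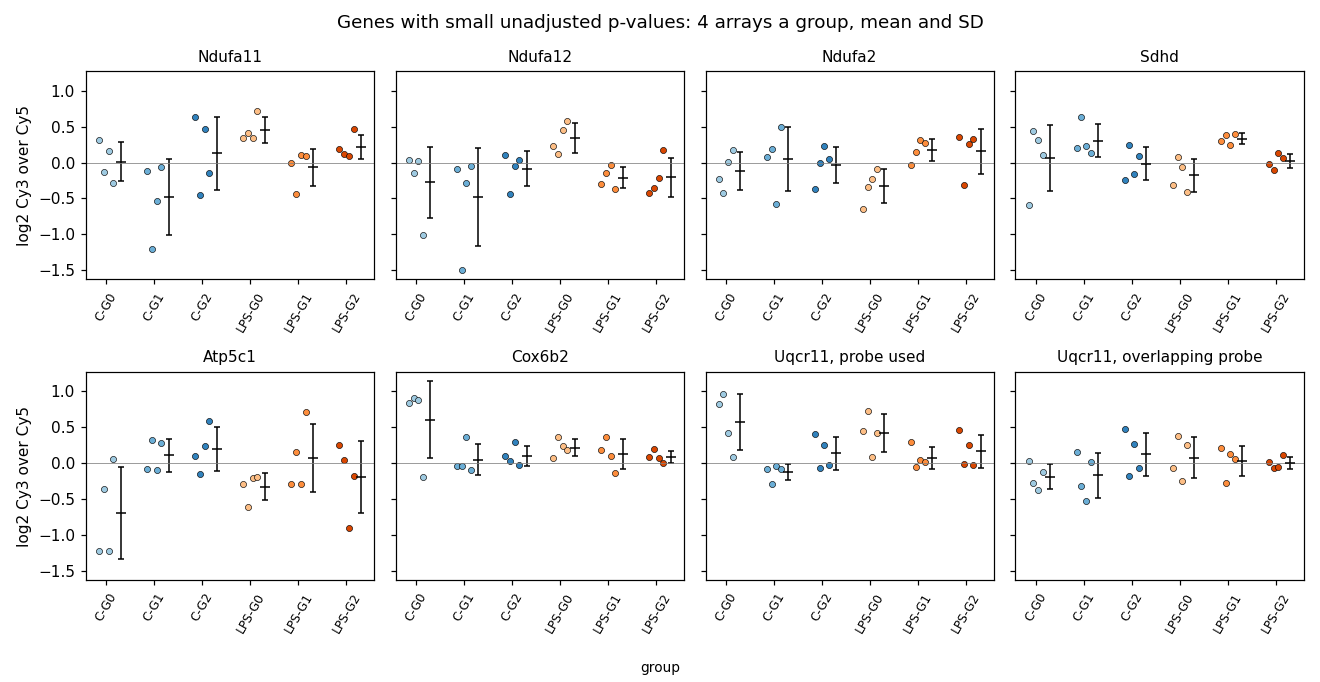
Log2 Cy3 over Cy5 (vertical axis) on the 4 arrays of each group for 7 genes, with group mean and SD beside the points; the last 2 panels hold a pair of overlapping Uqcr11 probes. Ndufa11 and Ndufa12 are highest in LPS-G0, 3 of 4 C-G0 arrays of Cox6b2 lie above all other arrays, and the Uqcr11 probes differ in C-G0.

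Beta-glucan diets without LPS were compared with the control diet in the fit of all 24 arrays, in which 84 members were tested. In C-G1 vs. C-G0 no member was called (0.028% of 10708 probes). At an unadjusted p under 0.05, 13 members were higher in C-G1 (15.5%, by 12.1% of all probes) and 3 lower (3.57%, by 15.8%). In C-G2 vs. C-G0 none was called either (0.028% of probes), with 6 members higher and 2 lower at that p, by 5.41% and 7.84% of all probes. The groups did not overlap for 6 of 84 members in C-G1 (7.04% of all probes) and for 2 in C-G2 (2.62%). Both comparisons rest on the same C-G0 arrays, the group with the widest spread.

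Of the 13 members higher in C-G1 at an unadjusted p under 0.05, 7 were on the core list, 4 were other subunits, Ndufv2 among them, and 2 were assembly factors. Of the 18 core subunits 14 lay above 0 (77.8%, by 51.4% of all probes). The 7 were Ndufs1 (0.74), Ndufs3 (0.47), Ndufv1 (0.39), Sdhb (0.34), Uqcrfs1 (0.55, the Rieske iron-sulphur protein of complex III), Atp5a1 (0.56) and Atp5c1 (0.80), of which Ndufs1 was above background on 2 of the 4 C-G0 arrays and Atp5c1 on 3. The core median was 0.29. The 13 complex IV genes differed from this, with a median of -0.21 and 4 above 0. Their median on single arrays was -0.34 on C-G1 replicate 2, against -0.08 to -0.001 on the other C-G1 arrays. C-G0 replicate 1 carried much of the count: without it 2 members in place of 13 had an unadjusted p under 0.05 and were higher. Cytosolic ribosomal protein genes had a median of 0.35, with 36 of 98 higher at that p.

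Uqcr11 had the smallest p of any member. Its probe read -0.08, -0.28, -0.04 and -0.08 in C-G1 and 0.82, 0.96, 0.42 and 0.09 in C-G0, without overlap, a difference of -0.70 (SE 0.182, adjusted p = 0.104). The probe that shares 30 bases with it gave 0.02 (SE 0.180) and the third probe 0.17 (SE 0.119), although all 3 were well above background on all 24 arrays. In C-G2 vs. C-G0 the used probe gave -0.43, the overlapping probe 0.31 and the third 0.23. The direction for Uqcr11 thus depended on the probe. It was the only gene whose probes disagreed in sign with an unadjusted p under 0.05 for one of them, among 13 genes with several tested probes.

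Ndufaf4 read 0.26, 0.19, -0.08 and 0.14 in C-G1, where it was above background on all 4 arrays, and -1.92, -0.64, -0.96 and -0.22 in C-G0, where it was above background on 1. It entered the test only through C-G1, the group in which it was high, so its difference is not read as a result, although it is counted among the 13 higher members. Averaged with the gene's other 3 probes, which were above background on 2 arrays at most, the difference was -0.30. Ndufa6, an accessory subunit, gave 0.23, 0.42, 0.08 and 0.14 in C-G1 and -0.77, -0.22, -0.22 and 0.07 in C-G0, a difference of 0.50 (SE 0.176, adjusted p = 0.130).

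Atp5c1 led C-G2 vs. C-G0, at 0.10, -0.15, 0.24 and 0.58 in C-G2 and -1.22, -0.36, -1.21 and 0.06 in C-G0. A pair of C-G0 arrays was very low and replicate 4 overlapped C-G2. The difference was 0.88 (SE 0.282, adjusted p = 0.224). Of the 84 members 49 lay above 0 (58.3%, by 52.7% of all probes). Sdhb, the iron-sulphur subunit of succinate dehydrogenase, did not overlap, with 0.43, 0.17, 0.23 and 0.17 in C-G2 and -0.51, 0.03, -0.12 and -0.09 in C-G0 (difference 0.42, SE 0.143, adjusted p = 0.245). Ndufs7, a core iron-sulphur subunit of complex I, read 0.48, 0.09, 0.08 and 0.11 in C-G2 and -0.67, -0.06, -0.51 and -0.05 in C-G0 (difference 0.51, SE 0.196, adjusted p = 0.277).

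Without C-G0 replicate 4, 7 members were called in C-G1 vs. C-G0 (9.04% of all probes): Atp5c1 (1.04), Ndufa6, Ndufs3 and Uqcrfs1 higher, Uqcr11 (-0.86) and Cox6b2 (-0.83) lower, and Ndufaf4, which had passed the filter through C-G1 alone. In C-G2 vs. C-G0 the same omission called Atp5c1 (1.13) and Cox6b2 (-0.77), where 3.31% of probes were called. The erythroid mean was 0.02 in C-G0, -0.78 in C-G1 and -0.26 in C-G2, and 4 of the 7 markers were lower in C-G1 at an unadjusted p under 0.05. Its part in these differences was not tested.

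The tissue-restricted isoforms of complex IV behaved unlike each other. Cox6a2, Cox8b and Cox8c, known from muscle or testis, were above background in Cy3 on 0 of 24 arrays and in Cy5 on 6, 16 and 0, whereas their widely expressed partners Cox6a1 and Cox8a were tested. Cox4i2, known from lung, and Cox6b2, known from testis, were above background in Cy3 on all 24. Cox6b2 read 0.83, 0.92, 0.88 and -0.19 in C-G0, and the highest value in the other 5 groups was 0.37. Its difference was -0.56 in C-G1 (SE 0.191, adjusted p = 0.125) and -0.51 in C-G2 (SE 0.191, adjusted p = 0.274), with the sign turned on the slide that held C-G0 replicate 4. Cox4i2 read 0.05, -0.07, 0.04 and -0.04 in LPS-G0 and -0.27, -0.35, -0.27 and -0.60 in LPS-G1, without overlap (difference -0.37, SE 0.144, adjusted p = 0.116). Cox4i1 differed by -0.06 in the same comparison.

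LPS was also compared with saline within each beta-glucan diet. In LPS-G1 vs. C-G1 0 members were called (0.00934% of probes), and none had an unadjusted p under 0.05, against 1.99% of all probes higher and 0.822% lower. Ndufb4l1, a near-copy of Ndufb4, had the smallest p (0.33, SE 0.159, adjusted p = 0.95), followed by Ndufb9 (0.25), Cox7b (0.61) and Ndufa11 (0.42). Without C-G1 replicate 2 Ndufa11 was at 0.18 and Cox7b at 0.38, and without LPS-G1 replicate 3 Cox7b was again at 0.38. In LPS-G2 vs. C-G2 none was called (0% of probes), and 2 members were higher at an unadjusted p under 0.05 (0.588% of all probes): Cox6c-ps1 and Ndufb8. Cox6c-ps1 read 0.01, 0.17, 0.13 and -0.26 in LPS-G2 and -0.55, -0.10, -0.52 and -0.92 in C-G2 (difference 0.54, SE 0.204, adjusted p = 1). It was above background on 2 of the 4 C-G2 arrays. Over the alternative settings described at the end, other than single arrays left out, its difference ran from 0.19 to 0.67. Ndufb8 differed by 0.30 (SE 0.138, adjusted p = 1). The 95% interval stayed within 2-fold for 82 and 83 of the 84 members. Complex IV had 11 of 13 genes above 0 in both comparisons (84.6%, by 54.3% and 52.8% of all probes), with medians of 0.13 and 0.10. The first comparison includes C-G1 replicate 2, where the complex IV median was -0.34. The groups did not overlap for 4 members in the first (2.73% of all probes) and 3 in the second (1.07%).

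Whether the response to LPS differed between diets was tested as an interaction. No member was called for the G1 or the G2 diet, and 0% of probes were. At an unadjusted p under 0.05 there was 1 member for each: Ndufb6 (-0.48, SE 0.230, adjusted p = 0.999) for G1, where 1.89% of all probes were higher and 1.12% lower at that p, and Cox6c-ps1 (0.77, SE 0.289, adjusted p = 0.832) for G2, where 3.18% and 2.39% were. Cox6c-ps1 was above background on 2 of the 4 C-G2 arrays. Its G2 interaction ran from 0.15 to 0.90 over the alternative settings other than single arrays left out. For Ndufa12 the LPS difference was lower on G2 than on the control diet by 0.74 (interaction -0.74, SE 0.372, adjusted p = 0.832). The median interaction over the members was 0.00 for G1 and -0.01 for G2. These terms were the least precise, with 72 and 66 of 84 intervals within 2-fold.

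The other genes of the pathway were counted from lists of electron carriers, further assembly factors, the ATP synthase inhibitor, carriers, the tricarboxylic acid cycle and regulators, 67 genes of which 62 were on the array. Of the 40 tested in the main comparisons, 1 was called: Cox15, which makes the haem A of complex IV, fell by 0.66 in LPS-G1 vs. LPS-G0 (SE 0.177, adjusted p = 0.0324). Of all probes 8.93% were called there. In the same comparison 5 of the 40 were higher (12.5%, by 7.59% of all probes) and 4 lower (10%, by 19.3%) at an unadjusted p under 0.05. In C-G1 vs. C-G0, 10 of 42 were higher (23.8%, by 12.1%) and 3 lower (7.14%, by 15.8%) at that p, none called. The inhibitor Atpif1 differed by -0.44 there and by -0.43 in C-G2 vs. C-G0.

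Over the 24 arrays, members were also set against the mean of each list of blood cell markers. These correlations describe points that share groups, slides and the arrays that stood apart. Pearson's r with the mean of the erythroid markers exceeded 0.5 for 19 of 84 members (22.6%, by 25% of all probes) and was under -0.5 for 15 (17.9%, by 18.3%). With the T cell mean it exceeded 0.5 for 23 (27.4%, by 17% of all probes) and was under -0.5 for 4 (4.76%, by 6.88%). With the B cell mean 19 were above 0.5 (22.6%, by 17.7%) and 2 below -0.5 (2.38%, by 14%), and with the cell division mean 19 were above (22.6%, by 27%) and 27 below (32.1%, by 24.5%). No member passed either bound with the neutrophil mean, by 0.909% of all probes above 0.5 and 0.112% below -0.5. The erythroid shares lay under those of all probes. With group means removed the erythroid counts were 9 and 4, by 19.4% and 6.71% of all probes. Those of T cells were then 22 and 5, by 16.3% and 5.96%.

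Of the 19 members above 0.5 with the erythroid mean 1 was a core subunit, Cox4i1 (0.62). The others included Ndufa11 (0.82), Cox4i2 (0.77), Ndufa7l (0.73), Atp5j2 (0.71), Atp5h (0.69) and Cox8a (0.68). Of the 15 members under -0.5, 7 were core subunits, such as Uqcrc2 (-0.75), Atp5a1 (-0.70) and Sdhd (-0.65), and 8 were not, such as Ndufv3 (-0.69) and Atp5g2 (-0.62). With the T cell mean, 11 of the 18 were above 0.5, led by Sdha (0.77), the flavoprotein of succinate dehydrogenase, and Ndufs1 (0.69). Of the 53 other subunits 15 exceeded 0.5 with the erythroid mean and 9 with the T cell mean. The genes named in the LPS-G1 comparison lay on both sides: Ndufa11, Ndufa12 (0.58), Ndufa7l and Cox4i2 correlated positively with the erythroid mean, Sdhd and Atp5a1 negatively, and Ndufa2 weakly (-0.12). The median GC content of the probes was 46.7% for members with an erythroid r above 0.5, 45% for those under -0.5 and 45% over all probes.

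**Figure D4:**
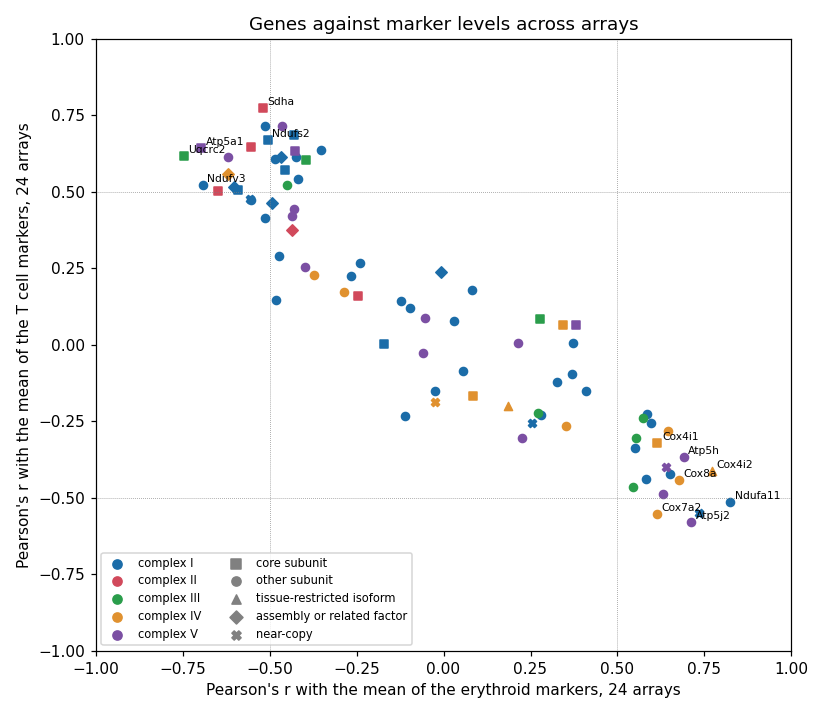
Pearson's r of each tested gene with the mean of the erythroid markers (horizontal axis) and with the mean of the T cell markers (vertical axis) over 24 arrays; colour gives the complex and shape the role. Genes run from Sdha, Uqcrc2 and Atp5a1 at the upper left to Ndufa11 (0.82 on the horizontal axis) and Cox4i2 at the lower right.

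Promoters were read from RefSeq (GRCr8), which gave 300 bases around the start, 250 before and 50 after, for 78 of the 94 genes. Searched on both strands, the palindrome of GCGCA joined to its reverse complement TGCGC, a motif of the respiratory regulator NRF1, occurred in 6 of 78 members' promoters (7.69%), by 0.932% of all 27457 promoters. CCGGAAG, an ETS family motif, was in 22 (28.2%, by 9.22%), AAGATGGC, a YY1 motif, in 15 (19.2%, by 3.44%), and GGGCGG, an SP1 motif, in 35 (44.9%, by 34.9%). The shorter GCGCATG, which lies inside the palindrome, was in 14 (17.9%, by 3.94%). A match describes letters in this window and does not show a site in use.

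The palindrome was found for Ndufa11, Ndufaf4, Ndufaf5, Atp5g2 (Atp5mc2), Atp5i (Atp5me) and Atp5o (Atp5po), and for 0 of the 18 core subunits with a promoter. Among members with an erythroid r above 0.5 and among those under -0.5, it was in 1 of 13 promoters each. The 250 bases before the start are shown for these 2 genes, since they share the motif and had an erythroid r of opposite sign, 0.82 for Ndufa11 and -0.62 for Atp5g2, which encodes a c subunit of the ATP synthase rotor. The palindrome is in capitals and the sense strand is printed (GRCr8, chr9:1637364-1637613, plus strand, and chr7:135678219-135678468, minus strand).
Ndufa11: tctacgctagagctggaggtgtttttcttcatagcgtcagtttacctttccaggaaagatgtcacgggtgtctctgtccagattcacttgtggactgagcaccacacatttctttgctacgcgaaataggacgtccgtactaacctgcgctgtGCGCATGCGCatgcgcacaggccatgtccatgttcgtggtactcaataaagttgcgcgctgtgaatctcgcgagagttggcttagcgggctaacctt
Atp5g2: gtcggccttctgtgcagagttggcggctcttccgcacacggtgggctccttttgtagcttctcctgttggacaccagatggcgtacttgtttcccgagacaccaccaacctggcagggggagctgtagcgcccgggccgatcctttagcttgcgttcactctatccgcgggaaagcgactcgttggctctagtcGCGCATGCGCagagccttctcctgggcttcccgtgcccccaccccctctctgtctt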

How the data were processed

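Blood RNA of 24 rats was hybridised to 2-colour Agilent arrays, 8 on each of 3 slides, and every slide held all 6 groups. The authors deposited Feature Extraction output for each array, in which LogRatio is a log10 ratio of dye-normalised Cy5 over Cy3 signals, and processed intensities in both channels. The submitters' processing notes name version 10.7.3.1 of that software and the deposited file headers 10.10.1.1. Here LogRatio was turned to log2 of Cy3 over Cy5 without further scaling. Control and outlier spots were left out and spots of a probe averaged. A probe was tested if its Cy3 signal was well above background on all 4 arrays of at least 1 group in the fit.

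Groups were compared with limma 3.58.1 (R 4.3.3), in a fit of 16 arrays for the 3 comparisons of the study and of all 24 arrays for the other comparisons and interactions, with Benjamini-Hochberg adjustment over all 10313 or 10708 probes and calls at an adjusted p under 0.05. The fits were tested on simulated data. Exact permutation tests used all 70 arrangements of 4 and 4 arrays. The number of arrays limits the precision: standard errors of members ran from 0.12 to 0.376 in the 16-array fit. Current symbols came from RefSeq for 83 of 94 genes.

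The members and all lists were chosen with earlier results of these data known. Named in each comparison were called members and the 4 with the smallest p, then core subunits, tissue-restricted isoforms and genes with discordant probes. Other members named were chosen after their values were seen. Alternatives covered scaling, filters, blocks, array weights, probe choice and left-out arrays. Each array came from 1 rat, and replicate numbers were not found to pair arrays.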

Additional observations from a re-analysis of the deposited data

Results flagged for a closer look

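Among 156 groups of 4 arrays (25 named members and the median of all members, in 6 groups), 12 held an array far from the other 3 by Dixon's test, in which the gap to the nearest array is divided by the range of the group; chance flags about 1 in 20. The causes were not tested.

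In C-G0, Atp5e on replicate 1 was at a log2 ratio of -0.91 against -0.09 to 0.03 on the others (gap over range 0.878), and Cox6b2 on replicate 4 at -0.19 against 0.83 to 0.92 (0.925). In C-G1, Cox6b2 on replicate 3 was at 0.37 against -0.10 to -0.04 (0.866), Ndufa12 on replicate 2 at -1.49 against -0.29 to -0.04 (0.831), and Ndufb10 on replicate 3 at -0.38 against 0.01 to 0.08 (0.837). In C-G2, the median of all members on replicate 4 was 0.08 against -0.06 to -0.04 (0.859), and Ndufs7 on replicate 1 was at 0.48 against 0.08 to 0.11 (0.913).

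In LPS-G0, Ndufa10 on replicate 4 was at -1.04 against -0.23 to -0.10 (0.857). In LPS-G1, Ndufa10 on replicate 3 was at -0.13 against 0.08 to 0.11 (0.870). In LPS-G2, Ndufa2 on replicate 2 was at -0.32 against 0.25 to 0.36 (0.844), Ndufb4l1 on replicate 2 at 0.33 against -0.23 to -0.16 (0.866), and Uqcrfs1 on replicate 3 at -0.93 against -0.09 to -0.03 (0.931).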

How the results depend on the processing

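The count of 0 called members was recomputed under 41 other settings. In LPS-G1 vs. LPS-G0 it became 1 with quantile normalization between arrays (Sdhd), 1 with a filter on every array (Ndufa11) and 13 with array weights, under which 27.6% of all probes were called. In LPS-G0 vs. C-G0 array weights called 1 (Ndufa7l). Leaving out 1 array gave between 0 and 4 called members in LPS-G0 vs. C-G0, 0 and 6 for LPS-G1 against LPS-G0, 0 and 7 in C-G1 vs. C-G0 and 0 and 2 in C-G2 vs. C-G0; the other comparisons stayed at 0. The high counts came without C-G0 replicate 1 in the first 2 comparisons and without C-G0 replicate 4 in the last 2. Leaving out C-G0 replicate 1 and C-G1 replicate 2 together, chosen after seeing the data, gave 4 and 6 in the first 2. Their fit holds no C-G1 array, so there this repeats the omission of C-G0 replicate 1 alone. Leaving out LPS-G0 replicates 3 and 4, whose labels conflict, left every count at 0. Ndufaf4 in C-G1 vs. C-G0 reversed to -0.298 when all its probes were averaged. The causes were not tested.

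Same-numbered arrays of different groups deviated together only weakly (mean r 0.111, lowest -0.307, against a mean of -0.038 for other numbers). Number and slide go together in part: replicate 1 of every group was on slide 1 and replicate 4 of every group on slide 3. With a replicate block 1 member was called for LPS-G1 vs. LPS-G0 (Ndufa2, 12.3% of all probes) and 1 for C-G1 vs. C-G0 (Uqcr11, 5.6%), and none in the other comparisons. Signal over background limited 10 members to no test in either fit.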
